A study of Mus musculus with 16 samples.

Results

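The genes of cholesterol and fatty acid synthesis were followed by name in mouse embryonic fibroblasts whose Atf5 had been knocked down and that were given a proteasome inhibitor. The list holds 31 genes in 3 roles: 18 enzymes of sterol synthesis, 6 genes that sense sterols or regulate the pathway through the SREBP transcription factors, and 7 enzymes of fatty acid synthesis. Each gene was found as the probe sets to which the platform annotation gives that symbol alone, and the probe set with the highest mean over all arrays stood for the gene. This gave 30 of the 31 genes among the 19938 genes tested, 17 of them sterol enzymes, and Acat2, a cytosolic acetoacetyl-CoA thiolase, was not analysed here. No filter on low values was applied, so all 30 entered every comparison.

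The series holds 16 arrays of total RNA, 4 in each of 4 groups. The first group is the ATF5-KD line, fibroblasts that stably express an shRNA against Atf5, given 1 µM MG132 for 8 h. The second is the wild-type line with a scramble shRNA under the same treatment. The remaining groups are the ATF5-KD line and the scramble shRNA line given the vehicle DMSO for 8 h. The lines are called KD and WT here; both carry a hairpin and both were grown in DMEM. MG132 is a peptide aldehyde that blocks the proteasome, and ATF5 is a stress-responsive transcription factor of the bZIP family. The labels speak of separate plates of each line but not of separate lines, and do not say whether a line is 1 clone or a pool, so a difference between KD and WT cannot be told apart from a difference between these particular lines. What the p-values weigh is thus the spread among plates of 1 line, which may be technical. The RNA comes from whole plates, in which fewer cells of a type and less RNA per cell cannot be told apart.

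Cells build cholesterol from acetyl-CoA through mevalonate, isoprenoids, squalene and lanosterol, and build fatty acids from the same acetyl-CoA through malonyl-CoA. When sterols in the endoplasmic reticulum are low, SCAP escorts the SREBP precursors to the Golgi, where they are cleaved and released to the nucleus to raise transcription of most enzymes of both routes. When sterols are plentiful, INSIG proteins hold SCAP and SREBP back, and Insig1 is itself a target of SREBP. The proteasome is known to degrade INSIG1 protein and nuclear SREBP, as well as several enzymes of the pathway.

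All values are log2 intensities after RMA, the authors' summary and normalization of the probe intensities, and a difference of 1 on this scale is a doubling or halving. Array medians lay between 7.71 and 7.82. Arrays correlated at 0.993 to 0.998 within groups and at 0.979 to 0.994 between groups, so the ranges overlapped slightly. Within a group, the SD of a member over its 4 arrays ran from 0.0096 to 0.144, with a median of 0.0457. One gradient across arrays carried 37.8% of the variance within groups, and WT MG132 array 4, KD vehicle array 1 and WT vehicle array 1 stood lowest on it. Its sign was set so that fibroblast markers were higher at the high end. Correlations of members with that gradient went both ways, from -0.621 for Pmvk to 0.793 for Idi1, with a median of 0.389. The median was 0.555 for the fatty acid enzymes, 0.390 for the sterol enzymes and 0.147 for the regulators (16 arrays, values within groups, a description only). The part of the gradient in the results was not tested, and counts without the arrays at its low end are given with each comparison. Atf5 averaged 8.46 ± 0.03 in KD cells with MG132 against 8.77 ± 0.10 in WT cells with MG132, and 8.35 ± 0.06 in KD cells with vehicle against 8.57 ± 0.10 in WT cells with vehicle (SD, n = 4 each), so the hairpin target was lower in the KD line in both conditions. Of 11 fibroblast markers 8 stood above the level of the median gene, with Vim, Col1a1, Col1a2 and S100a4 high and Fap and Lum low. Of 9 adipocyte markers, whose cells are rich in fatty acid enzymes, 2 stood above it, and Adipoq had group means of 5.53 to 5.63. The mean of the fibroblast markers ran from 9.44 to 9.51 in KD cells with MG132, from 9.27 to 9.29 in WT cells with MG132, from 9.63 to 9.67 in KD cells with vehicle and from 9.50 to 9.53 in WT cells with vehicle. Of the markers of other cells, 2 of 8 for macrophages, 2 of 6 for epithelium, 3 of 6 for smooth muscle and none of 7 for endothelium or of 6 for hepatocytes stood above the median gene.

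Promoter windows from RefSeq (build GRCm38.p6, 250 bases before to 50 after the start of the gene) are shown for the 4 members that had the highest and the lowest difference of MG132 responses between the lines among those past the threshold and that had a window. The capitals mark 5 motifs searched on both strands: TCACNCCA, the core of the classical sterol element, CCAAT, the box bound by NF-Y, GGGCGG, the box bound by Sp1, CACGTG, the E-box, and TGATGNAA, the core shared by sites of ATF4 with C/EBP partners. Each window is written 5′ to 3′ on the strand of the gene.
Msmo1, chr8:64733529-64733828, minus strand: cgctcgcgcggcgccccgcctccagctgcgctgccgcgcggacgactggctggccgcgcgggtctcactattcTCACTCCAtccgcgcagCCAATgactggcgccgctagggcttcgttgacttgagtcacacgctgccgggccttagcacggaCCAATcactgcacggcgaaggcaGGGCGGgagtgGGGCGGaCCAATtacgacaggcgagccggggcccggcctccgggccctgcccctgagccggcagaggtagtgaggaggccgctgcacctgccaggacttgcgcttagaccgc
Insig1, chr5:28071162-28071461, plus strand: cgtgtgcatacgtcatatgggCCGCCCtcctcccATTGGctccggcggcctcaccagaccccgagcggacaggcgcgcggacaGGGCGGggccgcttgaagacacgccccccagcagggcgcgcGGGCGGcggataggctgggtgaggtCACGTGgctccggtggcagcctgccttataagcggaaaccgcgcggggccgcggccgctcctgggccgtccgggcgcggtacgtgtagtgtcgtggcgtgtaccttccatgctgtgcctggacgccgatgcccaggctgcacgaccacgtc
Idi1, chr13:8885356-8885655, plus strand: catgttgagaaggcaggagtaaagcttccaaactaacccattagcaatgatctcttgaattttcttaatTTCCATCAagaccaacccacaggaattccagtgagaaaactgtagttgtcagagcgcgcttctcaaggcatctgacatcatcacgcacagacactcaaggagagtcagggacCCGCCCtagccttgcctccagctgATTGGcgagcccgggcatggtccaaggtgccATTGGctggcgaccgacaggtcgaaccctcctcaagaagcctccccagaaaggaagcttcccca
Srebf1, chr11:60222532-60222831, minus strand: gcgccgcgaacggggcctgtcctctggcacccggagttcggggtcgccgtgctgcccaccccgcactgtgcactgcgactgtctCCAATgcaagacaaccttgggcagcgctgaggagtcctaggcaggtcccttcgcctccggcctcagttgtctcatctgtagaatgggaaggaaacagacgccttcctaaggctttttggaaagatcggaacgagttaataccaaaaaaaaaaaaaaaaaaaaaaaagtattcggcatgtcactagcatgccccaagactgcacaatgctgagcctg
The Msmo1 window held the sterol element core at position -177 from the start of the gene, 3 CCAAT boxes and 2 GGGCGG boxes. The Insig1 window held 1 CCAAT box, 3 GGGCGG boxes and an E-box at position -101, but not the TCACNCCA core. In the Idi1 window 2 CCAAT boxes and 1 GGGCGG box stood between positions -69 and -14, and TGATGNAA lay at -181. The Srebf1 window, the one listed first of 3, held 1 CCAAT box only.

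Windows were at hand for 24 of the 30 members, 14 of them sterol enzymes. CCAAT was found in 20 of the 24 windows (83.3%), and in 13 of the 14 windows of sterol enzymes (92.9%), against 38.2% of the 15614 tested genes with a window and 37.9% of all 27025 windows. GGGCGG was found in 18 member windows (75.0%), again in 13 of the 14 windows of sterol enzymes, against 49.9% of tested genes and 35.9% of all windows. TCACNCCA was in 3 member windows, those of Hmgcs1, Msmo1 and Srebf2 (12.5%), against 3.87% of tested genes and 4.28% of all windows. CACGTG was in the windows of Hsd17b7, Sc5d, Insig1 and Scap (16.7%, against 8.38% of tested genes and 7.24% of all windows), and TGATGNAA in those of Idi1 and Insig2 (8.33%, against 3.18% and 4.06%). TCACNCCA and CCAAT share letters where such a core is followed by AT. A match describes the letters of a window, and no test was made on these shares.

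**Figure D1:**
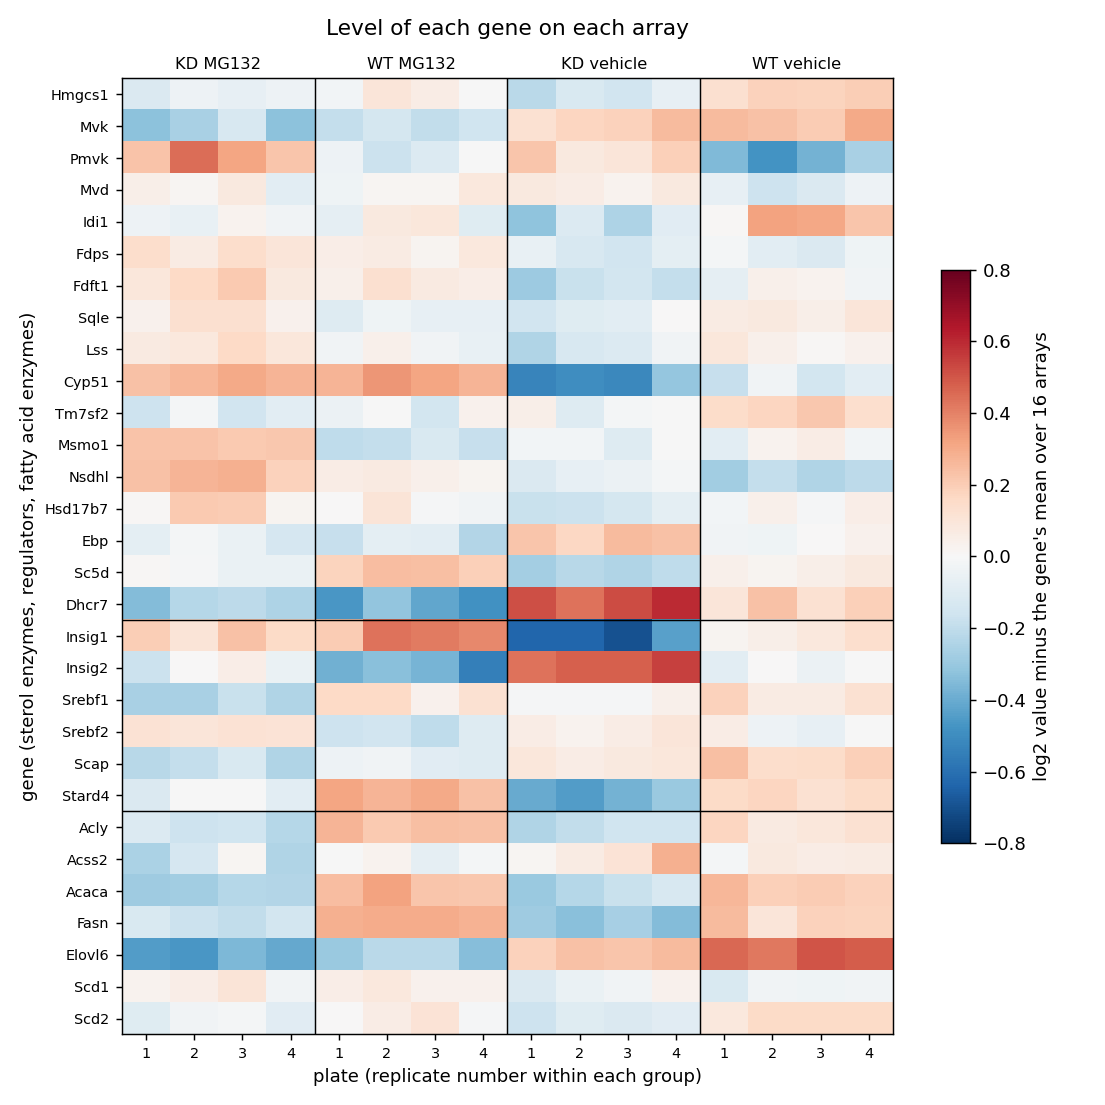
Level of each member on each array relative to that gene's mean over 16 arrays (log2), with members in rows grouped by role and arrays in columns in the order KD MG132, WT MG132, KD vehicle and WT vehicle. Insig1, Cyp51 and Stard4 are lowest in the KD vehicle columns, Dhcr7, Insig2 and Elovl6 are lower in all MG132 columns than in the vehicle columns of the same line, and Acaca, Fasn and Acly divide by line.

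The effect of MG132 in each line asks how the lipid synthesis genes respond to a blocked proteasome with and without the hairpin against Atf5. In KD cells 13 of the 30 members were higher with MG132 than with vehicle, 8 were lower and 9 did not pass the test (limma, adjusted p under 0.05 over all genes). Over all genes 40.7% were called in this comparison, 16.4% higher and 24.3% lower. The median member changed by 0.08 and the median gene by 0.03 on the log2 scale. The MG132 and vehicle arrays did not overlap for 20 members, 13 higher and 7 lower, against 38.5% of all genes, 15.1% higher and 23.4% lower. In WT cells 11 members were higher with MG132, 12 were lower and 7 did not pass, where 35.8% of all genes were called, 16.8% higher and 19% lower, and the arrays did not overlap for 11 members that were higher and 11 that were lower, against 32.9% of all genes, 15% higher and 17.9% lower. The median member there changed by -0.03 and the median gene by 0.03.

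By role, 10 of the 17 sterol enzymes rose with MG132 in KD cells, 3 fell and their median change was 0.17, while in WT cells 6 rose, 8 fell and the median was -0.06. Of the 6 regulators 2 rose and 3 fell in each line. Of the 7 fatty acid enzymes 1 rose and 2 fell in KD cells, and 3 rose and 1 fell in WT cells.

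Cyp51, the lanosterol demethylase, was the sterol enzyme with the highest MG132 change in both lines. It read 11.36, 11.39, 11.43 and 11.40 in KD arrays with MG132, against 10.60, 10.63, 10.61 and 10.82 in KD arrays with vehicle. In WT cells it read 11.40, 11.48, 11.44 and 11.40 with MG132, against 10.94, 11.10, 10.98 and 11.04 with vehicle. The MG132 arrays lay above the vehicle arrays of the same line without overlap, the MG132 groups of both lines overlapped, and the KD vehicle arrays were the lowest. Cyp51 rose by 0.73 ± 0.05 in KD cells (1.66-fold, SE, adjusted p = 2.5e-09) and by 0.42 in WT cells (1.33-fold, adjusted p = 2.06e-06).

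Msmo1, the sterol methyl oxidase that acts after Cyp51, and Sqle, the squalene epoxidase, moved in opposite directions in the lines. Msmo1 read 12.55, 12.55, 12.53 and 12.54 in KD arrays with MG132, against 12.30, 12.30, 12.22 and 12.32 in KD arrays with vehicle. WT arrays read 12.12, 12.13, 12.20 and 12.14 with MG132, against 12.24, 12.35, 12.38 and 12.30 with vehicle. MG132 thus set KD arrays above every vehicle array and WT arrays below them, with a rise of 0.26 ± 0.04 in KD cells (adjusted p = 1.38e-05) and a fall of 0.17 on the log2 scale in WT cells (adjusted p = 0.000972). Sqle read 12.09, 12.18, 12.18 and 12.09 in KD arrays with MG132, against 11.90, 11.96, 11.97 and 12.06 in KD arrays with vehicle. Its WT values were 11.95, 12.02, 11.99 and 11.99 with MG132, against 12.12, 12.13, 12.10 and 12.15 with vehicle. Neither pair of groups overlapped, and Sqle changed by 0.16 in KD cells (adjusted p = 0.0018) and by -0.14 in WT cells (adjusted p = 0.0072). These were the 2 members called in opposite directions, 6.67% of the members, against 1.04% of all genes, and 14 members (46.7%) were called in the same direction in both lines, against 25.2% of all genes.

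Among the enzymes of the mevalonate arm, Pmvk, the phosphomevalonate kinase, and Fdps, the farnesyl diphosphate synthase, rose in both lines, and Mvk, the mevalonate kinase, fell in both. Mvk changed by -0.44 in KD cells and by -0.42 in WT cells. Fdps changed by 0.22 in KD cells and by 0.12 in WT cells, and Pmvk by 0.16 in KD cells and by 0.29 in WT cells. Hmgcs1, which makes HMG-CoA, and Idi1, the isomerase of isopentenyl diphosphate, fell in WT cells alone by the test, by 0.14 and 0.22 on the log2 scale, with values of 0.07 (adjusted p = 0.143) and 0.17 (adjusted p = 0.0629) in KD cells. Mvd, the mevalonate diphosphate decarboxylase, rose by 0.12 in WT cells (adjusted p = 0.0295) and had a value of -0.05 in KD cells (adjusted p = 0.389).

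In the squalene and lanosterol steps, Fdft1, the squalene synthase, Lss, the lanosterol synthase, and Hsd17b7, a sterol ketoreductase, rose in KD cells by 0.34, 0.23 and 0.25. Their values in WT cells were 0.08, -0.06 and 0.00, and none passed the test there. Nsdhl, the dehydrogenase of the sterol demethylation complex, rose by 0.31 in KD cells and 0.28 in WT cells, and Sc5d, the sterol desaturase, by 0.21 in KD cells and 0.17 in WT cells. Dhcr7, the reductase of the last step to cholesterol, read 9.03, 9.15, 9.17 and 9.13 in KD arrays with MG132, against 9.89, 9.81, 9.90 and 9.97 in KD arrays with vehicle. In WT cells it read 8.91, 9.06, 8.96 and 8.89 with MG132, against 9.47, 9.61, 9.50 and 9.57 with vehicle. No MG132 array reached a vehicle array, and Dhcr7 fell by 0.77 ± 0.05 on the log2 scale in KD cells (1.71-fold lower, adjusted p = 1.38e-09) and by 0.58 in WT cells (1.50-fold lower, adjusted p = 3.75e-08). Ebp, the sterol isomerase, fell by 0.29 in KD cells and by 0.14 in WT cells on the same scale. Tm7sf2, a sterol reductase, fell by 0.21 in WT cells and had a value of -0.09 in KD cells (adjusted p = 0.154).

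Among the regulators, the INSIG genes moved apart. Insig1, the SREBP-induced retention protein, read 11.59, 11.50, 11.63 and 11.55 in KD arrays with MG132, against 10.76, 10.76, 10.70 and 10.96 in KD arrays with vehicle. Its WT arrays read 11.60, 11.83, 11.81 and 11.78 with MG132, against 11.42, 11.44, 11.48 and 11.53 with vehicle. The MG132 arrays were above the vehicle arrays of their own line in each case, and the KD vehicle arrays were the lowest of all. Insig1 rose by 0.77 ± 0.06 in KD cells (1.71-fold, adjusted p = 1.21e-08) and by 0.29 in WT cells (1.22-fold, adjusted p = 0.000685). Insig2, its relative that SREBP does not induce, read 10.48, 10.66, 10.71 and 10.60 in KD arrays with MG132, against 11.09, 11.13, 11.13 and 11.20 in KD arrays with vehicle. In the WT line it read 10.27, 10.32, 10.28 and 10.11 with MG132, against 10.57, 10.66, 10.61 and 10.65 with vehicle. The MG132 arrays lay below the vehicle arrays in both lines, with differences of -0.53 in KD cells (adjusted p = 2.98e-07) and -0.38 in WT cells (adjusted p = 1.43e-05).

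Stard4, a carrier of sterols between membranes, rose by 0.33 in KD cells and by 0.13 in WT cells, and Scap, the sterol sensor that escorts SREBP, changed by -0.27 in KD cells and by -0.25 in WT cells. Srebf1, which encodes the SREBP that favours fatty acid genes, changed by -0.24 in KD cells (adjusted p = 6.7e-05), with a value of 0.01 in WT cells (adjusted p = 0.84). Srebf2, which encodes the SREBP that favours sterol genes, changed by -0.14 in WT cells (adjusted p = 0.00243), with a value of 0.05 in KD cells (adjusted p = 0.248). Neither gene was called higher with MG132 in either line.

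Among the fatty acid enzymes, the strongest MG132 change was that of Elovl6, the elongase of saturated and monounsaturated fatty acids. It read 11.17, 11.15, 11.26 and 11.21 in KD arrays with MG132, against 11.80, 11.85, 11.84 and 11.87 in KD arrays with vehicle. WT values were 11.32, 11.40, 11.40 and 11.28 with MG132, against 12.08, 12.04, 12.12 and 12.10 with vehicle. MG132 and vehicle arrays did not overlap in either line, and Elovl6 changed by -0.64 ± 0.04 in KD cells (1.56-fold lower, adjusted p = 5.65e-10) and by -0.74 in WT cells (1.66-fold lower, adjusted p = 1.13e-10). Fasn, the fatty acid synthase, rose by 0.15 in KD cells and by 0.11 in WT cells. Acly, which makes cytosolic acetyl-CoA from citrate, rose by 0.13 in WT cells, and its value was 0.02 in KD cells. Acss2, which makes acetyl-CoA from acetate, changed by -0.27 in KD cells (adjusted p = 0.00144) although its groups overlapped, and its value was -0.06 in WT cells. Acaca, the acetyl-CoA carboxylase that commits carbon to fatty acids, passed in neither line, with -0.05 in KD cells and 0.04 in WT cells. Scd1 and Scd2, the desaturases that make monounsaturated fatty acids, had values of 0.08 and 0.06 in KD cells (adjusted p = 0.115 and 0.198) and of 0.11 and -0.09 in WT cells (adjusted p = 0.0451 and 0.0548).

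Small changes depended on the scale set between arrays. Centring the arrays on their medians, which moved the median gene by -0.06 in KD cells and -0.05 in WT cells, ended the calls of Pmvk, Sqle and Fasn in KD cells (adjusted p = 0.208, 0.0988 and 0.084) and of Mvd, Fdps, Stard4, Acly, Fasn and Scd1 in WT cells (adjusted p = 0.22 to 0.496), leaving 5 members higher in WT cells. Single arrays also decided 5 calls of this kind: Pmvk in KD cells (4 arrays, adjusted p up to 0.152 with one left out), and in WT cells Scd1 (12 arrays, up to 0.138), Idi1 (4 arrays, up to 0.0735), Mvd (3 arrays, up to 0.102) and Fasn (WT vehicle array 2, 0.0843). With 4 arrays at the low end of the gradient left out, in either of 2 sets chosen after seeing the data, KD counts were 14 and 12 higher with 8 lower in both sets, and WT counts were 10 and 9 higher with 10 and 11 lower. The first set was WT vehicle arrays 1 and 4, KD vehicle array 1 and WT MG132 array 4. The second held KD MG132 array 2 in place of WT vehicle array 4, almost level with it on the gradient (-4.269 and -4.266). Fewer arrays also make a call harder to reach, which was not told apart from the gradient. Without the first set the call of Sqle in WT cells was lost (adjusted p = 0.0558), and that of Ebp without either (adjusted p = 0.151 and 0.0548).

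**Figure D2:**
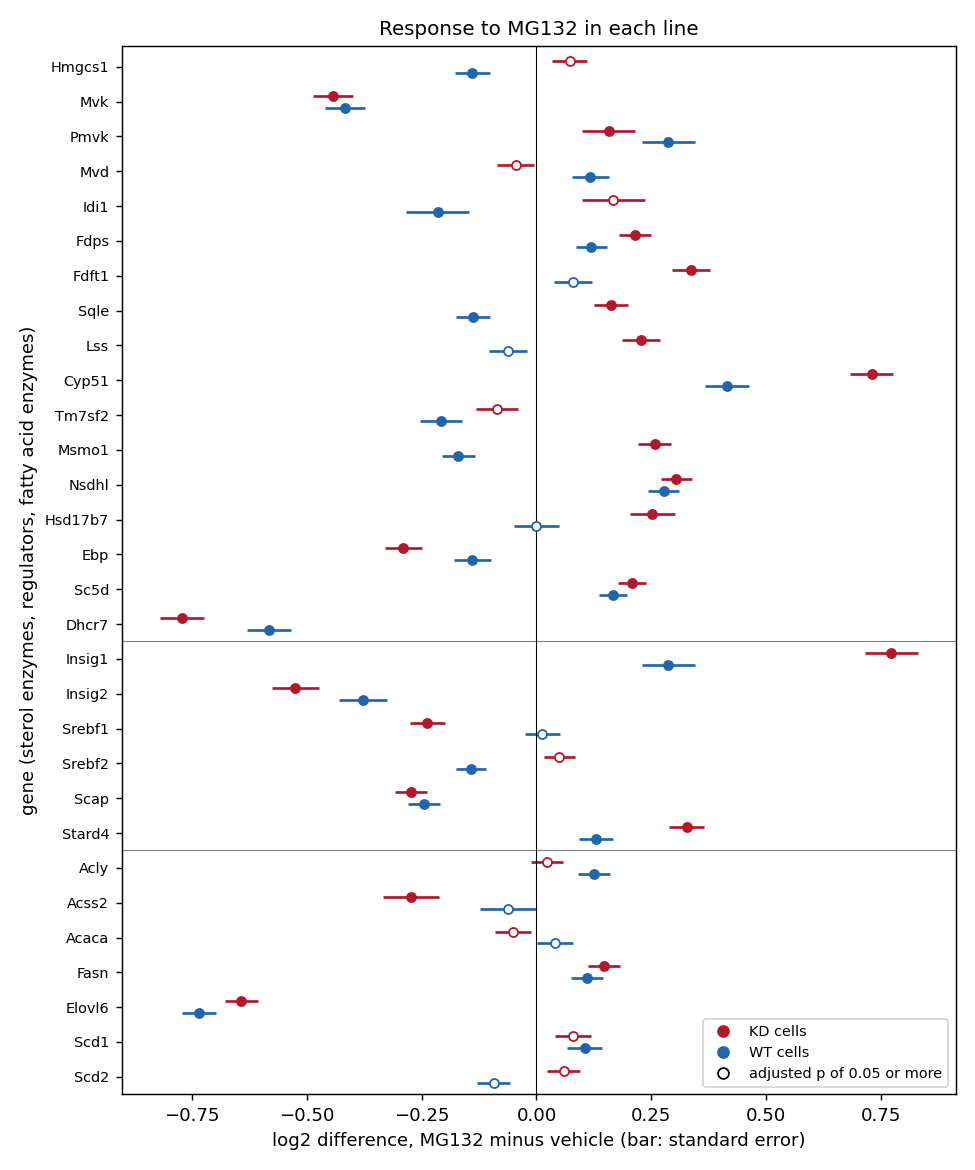
MG132 minus vehicle difference in log2 for each member, with its standard error, KD above WT in each row, filled where the limma adjusted p is under 0.05 and open otherwise. Cyp51 and Insig1 are farthest right in KD cells, Dhcr7 and Elovl6 farthest left in both lines, and Msmo1 and Sqle fall on opposite sides of 0.

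The comparison of KD with WT cells asks what the hairpin line differs in under each condition. The 2 line comparisons share no arrays with each other, but each shares arrays with the MG132 responses above. With vehicle, 6 of the 30 members were higher in KD cells, 18 were lower and 6 did not pass, where 39.4% of all genes were called, 21.5% higher and 17.9% lower. The groups did not overlap for 6 members that were higher and 18 that were lower, against 38.7% of all genes, 21.4% higher and 17.3% lower. The median member differed by -0.16 and the median gene by -0.01. Under MG132, 8 members were higher in KD cells, 10 were lower and 12 did not pass, where 38.1% of all genes were called, 17.7% higher and 20.3% lower. The groups did not overlap for 7 members that were higher and 10 that were lower, against 34.7% of all genes, 16.6% higher and 18.1% lower, and the median member differed by -0.03 and the median gene by -0.00.

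Of the 17 sterol enzymes, 5 were higher and 9 lower in KD cells with vehicle (median -0.15), and 6 were higher and 1 lower under MG132 (median 0.06). Of the 6 regulators, 1 was higher and 4 lower with vehicle, and 2 were higher and 4 lower under MG132. Of the 7 fatty acid enzymes, none was higher and the same 5 were lower in both conditions.

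With vehicle, Insig1 was the member farthest below WT cells. Its KD arrays, at 10.70 to 10.96, lay below the WT arrays at 11.42 to 11.53, a difference of -0.67 (1.59-fold lower, adjusted p = 4.2e-08). Under MG132 its KD arrays, at 11.50 to 11.63, reached into the WT arrays at 11.60 to 11.83, and the difference of -0.19 ± 0.06 (adjusted p = 0.0156) lost its call without KD MG132 array 2 (adjusted p = 0.0527), without WT MG132 array 2 (adjusted p = 0.0532) and with array weights (adjusted p = 0.0606). Stard4 read 10.21, 10.32, 10.32 and 10.24 in KD cells with MG132, against 10.64, 10.60, 10.63 and 10.56 in WT cells with MG132. With vehicle it read 9.92, 9.88, 9.95 and 10.03 in KD cells, against 10.48, 10.50, 10.45 and 10.48 in WT cells. It was lower in KD cells in both conditions without overlap, with differences of -0.34 under MG132 (adjusted p = 1.37e-06) and -0.53 with vehicle (1.45-fold lower, adjusted p = 3.68e-09).

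The sterol enzymes lower in KD cells with vehicle were Hmgcs1 (-0.31), Idi1 (-0.41), Fdft1 (-0.20), Sqle (-0.15), Lss (-0.17), Cyp51 (-0.35), Tm7sf2 (-0.19), Hsd17b7 (-0.16) and Sc5d (-0.28). Idi1 read 11.21, 11.42, 11.28 and 11.44 in KD arrays with vehicle, against 11.54, 11.85, 11.84 and 11.75 in WT arrays with vehicle. Under MG132 it read 11.49, 11.47, 11.56 and 11.50 in KD arrays, against 11.46, 11.61, 11.62 and 11.43 in WT arrays. The vehicle groups were apart (adjusted p = 0.000104) and the MG132 groups overlapped, with a difference of -0.03 (adjusted p = 0.837). Of these 9 enzymes, Sc5d was also lower under MG132 (-0.24), Sqle and Lss were higher there (0.15 and 0.12), and the other 6 did not pass there. Among those 6, Hmgcs1 missed narrowly under MG132 (-0.10, adjusted p = 0.0535). Its KD and WT arrays did not overlap there, and it passed in 13 of 30 alternative analyses. Over all members 14 were called in the same direction in both conditions (46.7%) and 2 in opposite directions (6.67%), against 27.6% and 0.978% of all genes.

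The sterol enzymes higher in KD cells with vehicle were Pmvk (0.52), Dhcr7 (0.36), Ebp (0.23), Nsdhl (0.17) and Mvd (0.16). Pmvk read 9.35, 9.57, 9.44 and 9.34 in KD cells with MG132, against 9.08, 8.95, 9.01 and 9.12 in WT cells with MG132. With vehicle it read 9.34, 9.20, 9.22 and 9.31 in KD cells, against 8.77, 8.64, 8.74 and 8.86 in WT cells. Its KD arrays were higher in both conditions without overlap. Under MG132 Msmo1 showed the highest line difference of the sterol enzymes, 0.40 (1.31-fold, adjusted p = 8.84e-08), followed by Pmvk with 0.39, Nsdhl with 0.19 and Dhcr7 with 0.17. Msmo1 had a difference of -0.03 with vehicle (adjusted p = 0.548).

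Insig2 was higher in KD cells, by 0.37 under MG132 and 0.52 with vehicle, in contrast to Insig1. Srebf1 read 9.93, 9.93, 10.01 and 9.95 in KD cells with MG132, against 10.35, 10.35, 10.22 and 10.31 in WT cells with MG132. With vehicle it read 10.18, 10.18, 10.18 and 10.23 in KD cells, against 10.37, 10.25, 10.25 and 10.31 in WT cells. The KD arrays were lower in both conditions, clearly under MG132 (-0.35, adjusted p = 8.08e-07) and narrowly with vehicle (-0.10, adjusted p = 0.0417). Srebf2 read 11.96, 11.94, 11.96 and 11.95 in KD cells with MG132, against 11.68, 11.69, 11.64 and 11.74 in WT cells with MG132. It was higher in KD cells there (0.27, adjusted p = 4.71e-06), and its difference with vehicle was 0.07 (adjusted p = 0.102). Scap was lower in KD cells, with differences of -0.13 under MG132 and -0.10 with vehicle.

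Among fatty acid enzymes, Acaca, Fasn and Acly separated the lines in both conditions. Acaca read 11.14, 11.15, 11.20 and 11.19 in KD cells with MG132, against 11.67, 11.75, 11.65 and 11.64 in WT cells with MG132. With vehicle it read 11.13, 11.20, 11.25 and 11.30 in KD cells, against 11.69, 11.62, 11.63 and 11.61 in WT cells. Every KD array was below every WT array, with differences of -0.51 under MG132 (1.42-fold lower, adjusted p = 1.22e-08) and -0.42 with vehicle (1.34-fold lower, adjusted p = 1.2e-07). Fasn read 12.45, 12.40, 12.38 and 12.43 in KD cells with MG132, against 12.86, 12.87, 12.87 and 12.85 in WT cells with MG132. With vehicle it read 12.29, 12.24, 12.31 and 12.23 in KD cells, against 12.83, 12.67, 12.76 and 12.75 in WT cells. It too was lower in every KD array, with differences of -0.45 under MG132 (1.36-fold lower) and -0.49 with vehicle (1.40-fold lower). Acly differed by -0.41 under MG132 and -0.30 with vehicle, Elovl6 by -0.15 under MG132 and -0.25 with vehicle, and Scd2 by -0.10 under MG132 and -0.25 with vehicle. Scd1 and Acss2 passed in neither condition.

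Some markers of other cell types were also called between the lines, where 38.1% of all genes were called under MG132 and 39.4% with vehicle. The shares were 12.5% and 25% for macrophages, 33.3% and 16.7% for epithelium, and 14.3% in both conditions for endothelium. For hepatocytes they were 0% and 16.7%, for adipocytes 44.4% and 33.3%, and for smooth muscle 50% and 66.7%. The mean of the 9 adipocyte markers ran from 7.33 to 7.38 in KD cells and from 7.39 to 7.51 in WT cells under MG132, and from 7.20 to 7.35 in KD cells and from 7.25 to 7.35 in WT cells with vehicle. Its members went both ways: Pparg, a regulator of lipid genes, averaged 7.57 in KD cells and 9.22 in WT cells under MG132, while Fabp4, a fatty acid carrier, averaged 6.55 in KD cells and 5.84 in WT cells, and Lipe, a lipase, 9.26 in KD cells and 9.08 in WT cells. With vehicle Pparg averaged 7.38 in KD cells and 8.90 in WT cells, Fabp4 6.53 in KD cells and 5.82 in WT cells, and Lipe 9.12 in KD cells and 8.81 in WT cells. The mean of the 6 smooth muscle markers was lower in KD cells without overlap, at 9.30 to 9.36 in KD cells and 9.69 to 9.80 in WT cells under MG132, and at 9.38 to 9.46 in KD cells and 9.82 to 9.88 in WT cells with vehicle. The mean of the 6 epithelial markers was likewise lower, at 7.68 to 7.78 in KD cells and 8.09 to 8.22 in WT cells under MG132, and at 7.68 to 7.77 in KD cells and 8.10 to 8.22 in WT cells with vehicle. Of the 6 epithelial markers, 2 were called lower under MG132 and 1 with vehicle, and none higher (median differences -0.09 and -0.10). Of the 6 smooth muscle markers, 3 were called lower in each condition, and 1 was called higher with vehicle. Tagln, an actin-binding protein of the smooth muscle list, averaged 9.96 in KD cells and 11.85 in WT cells under MG132, and Krt19, a keratin, averaged 8.66 in KD cells and 10.74 in WT cells. The mean of the 8 macrophage markers was higher in KD cells, at 6.88 to 6.94 in KD cells and 6.73 to 6.77 in WT cells under MG132, and at 6.73 to 6.85 in KD cells and 6.61 to 6.68 in WT cells with vehicle. Of these 8, 1 was called higher in KD cells under MG132 and 2 with vehicle, and none lower. Cd14 averaged 9.09 in KD cells and 8.04 in WT cells under MG132, and 8.64 in KD cells and 7.845 in WT cells with vehicle. The fibroblast means given above were higher in KD cells in both conditions, but their members went both ways. Of the 11 fibroblast markers, 5 were called higher and 1 lower under MG132 (median 0.09), and 4 higher and 2 lower with vehicle (median -0.03). Single genes of these lists were picked after their values were seen, and the part of these markers in the line differences was not tested.

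Several calls between the lines were narrow. Under MG132, Lss lost its call without any of 4 single arrays (adjusted p = 0.0614 to 0.0965) and Scd2 without any of 4 (0.0821 to 0.122). With vehicle, Srebf1 lost it without any of 7 single arrays (0.0502 to 0.141) and Scap without any of 4 (0.057 to 0.0939). Without the 2 sets of low-gradient arrays, KD cells had 8 and 7 members higher with 11 and 10 lower under MG132, and 7 and 7 higher with 13 and 16 lower with vehicle. The calls of Sqle, Lss and Hsd17b7 with vehicle were lost without the first set (adjusted p = 0.071, 0.0671 and 0.113), and those of Dhcr7 and Insig1 under MG132 without the second (adjusted p = 0.0803 and 0.105). Srebf1 and Scap with vehicle lost theirs without either set (adjusted p = 0.119 to 0.45). Median-centred arrays ended the calls of Scd2 under MG132 (adjusted p = 0.179) and of Hsd17b7, Srebf1 and Scap with vehicle (adjusted p = 0.067, 0.171 and 0.176).

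**Figure D3:**
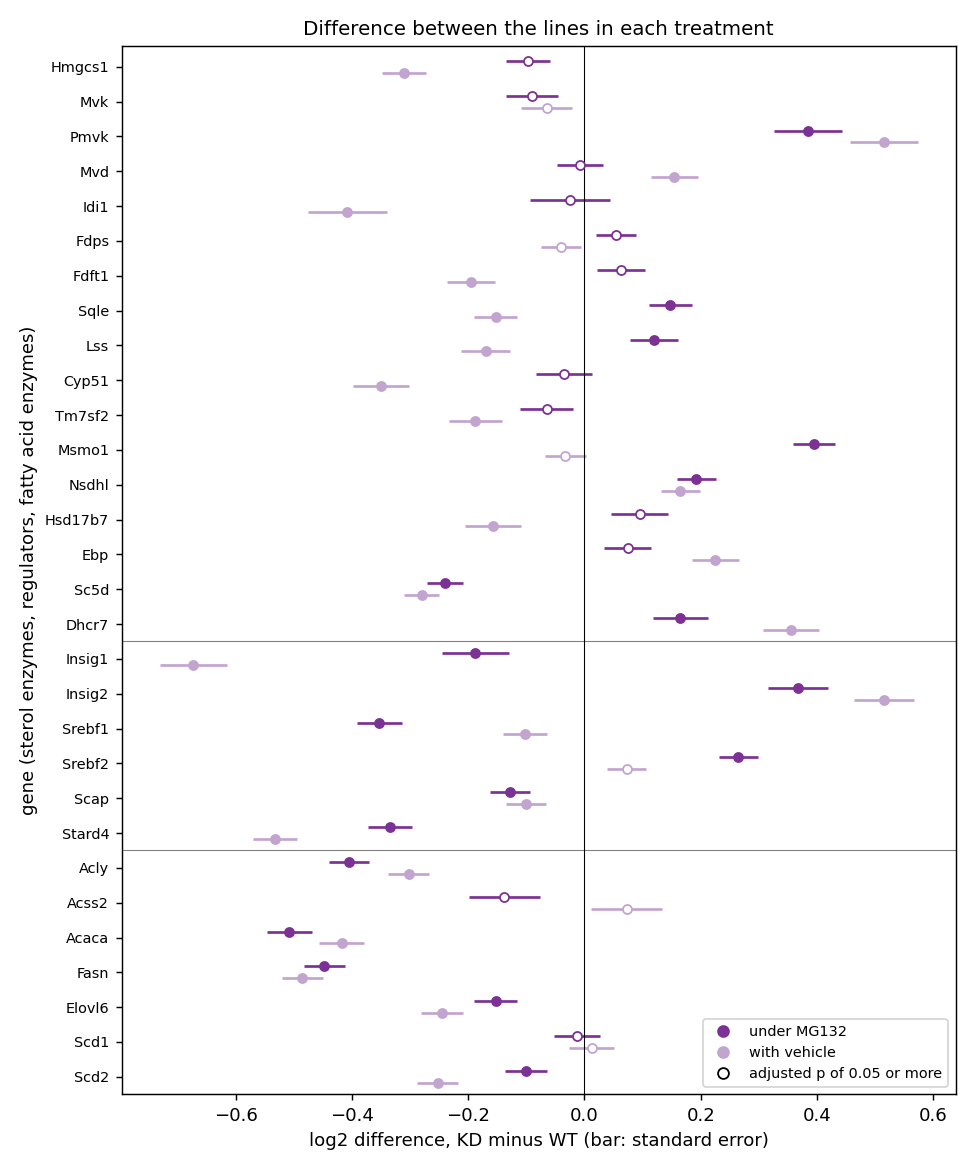
KD minus WT difference in log2 for each member, with its standard error, under MG132 above and with vehicle below in each row, filled where the limma adjusted p is under 0.05. Most sterol enzymes sit left of 0 with vehicle and near or right of 0 under MG132, and Acaca, Fasn and Acly sit left of 0 in both.

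The difference of MG132 responses, KD minus WT, asks whether the response to MG132 itself differed between the lines, and it is built from the same 16 arrays as the comparisons above. It was positive and past the threshold for 11 of the 30 members, negative for 1 and not past it for 18, where 14.6% of all genes were called, 4.45% positive and 10.1% negative. The median member had 0.07 and the median gene -0.01. Of the 11, 8 were sterol enzymes (of 17, median 0.12) and 3 regulators (of 6, median 0.08), and no fatty acid enzyme passed. Scd2 came nearest of the fatty acid enzymes with 0.15 (adjusted p = 0.0545), and it passed in 9 of 29 alternative analyses.

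Insig1 had the highest difference, 0.49 ± 0.08 (adjusted p = 0.000794), a 1.40-fold greater rise in KD than in WT cells. Msmo1 followed with 0.43 ± 0.05 (1.34-fold, adjusted p = 3.35e-05), the smallest adjusted p among the members. The remaining sterol enzymes were Idi1 (0.38, adjusted p = 0.0135), Cyp51 (0.32, 0.00457), Sqle (0.30, 0.00106), Lss (0.29, 0.00307), Fdft1 (0.26, 0.0066), Hsd17b7 (0.25, 0.0196) and Hmgcs1 (0.21, 0.013). Stard4 (0.20, 0.0196) and Srebf2 (0.19, 0.0108) were the other regulators with a positive difference, and Srebf1 (-0.25, 0.00475) was the member with a negative one.

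These genes did not reach the difference in the same way. Insig1, Cyp51 and Stard4 rose in both lines, and rose more in KD cells, where vehicle levels were lower. Hmgcs1, Idi1 and Srebf2 passed the test in WT cells alone, with a fall there. For Idi1 this division was narrow. Its KD value of 0.17 came from arrays that did not overlap, and it passed in 10 of 30 alternative analyses. Its WT arrays overlapped, and the call there was lost in 5 of 30. Fdft1, Lss and Hsd17b7 passed in KD cells alone, with a rise, and Msmo1 and Sqle passed in both with opposite signs. Of the 11, Msmo1 and Srebf2 had no called difference between the lines with vehicle, and the other 9 were lower in KD cells. The line difference with vehicle is subtracted in the difference of responses, so a low KD vehicle level raises it by construction. Lower vehicle levels in KD cells among these genes are therefore not a separate result. The same share among all genes with a positive difference was not compared. The calls of Hsd17b7 and Stard4 were lost with median-centred arrays (adjusted p = 0.0505 and 0.0676) and without either set of low-gradient arrays (adjusted p = 0.0884 to 0.113), and that of Hmgcs1 without the first set (adjusted p = 0.0563), which left 8 and 9 members positive and 1 negative.

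**Figure D4:**
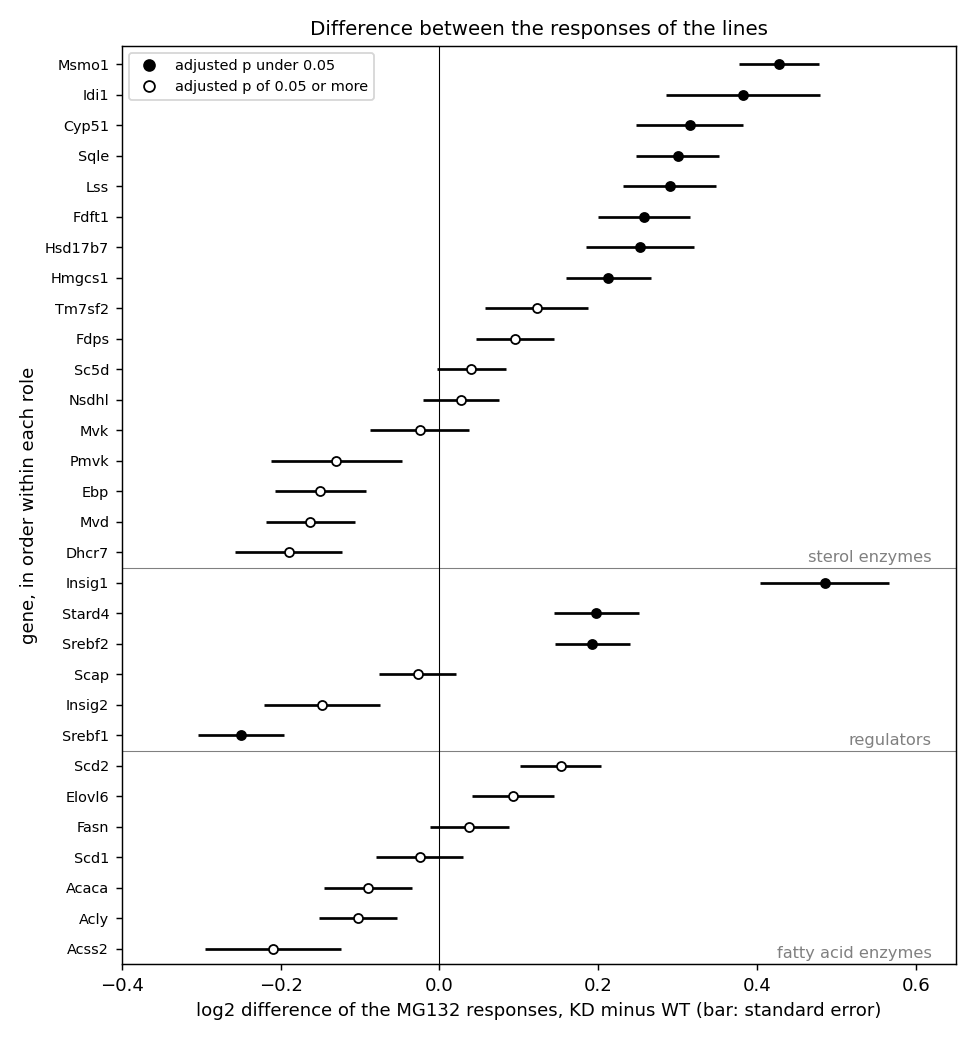
Difference of the MG132 responses, KD minus WT, in log2 for each member with its standard error, filled where the limma adjusted p is under 0.05. Insig1 and Msmo1 are farthest right, Srebf1 is the filled point left of 0, and all 7 fatty acid enzymes are open.

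**Figure D5:**
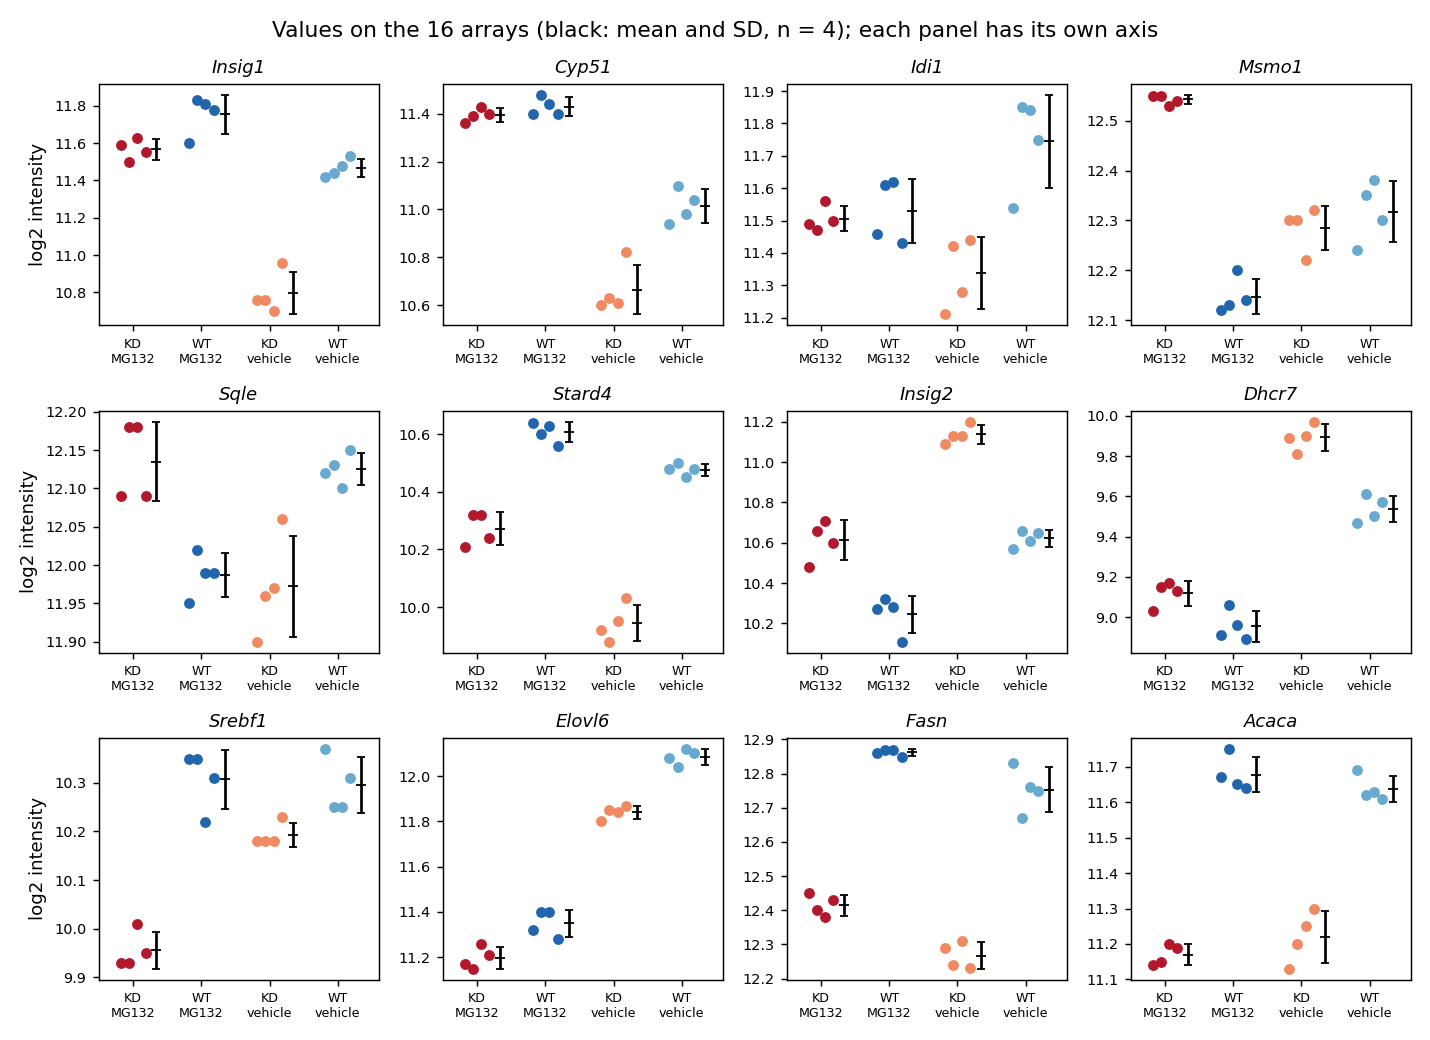
Log2 intensity of 12 members on every array, 1 panel a gene, with the groups in the order KD MG132, WT MG132, KD vehicle and WT vehicle and a black mark with error bar for the mean and SD of each group (n = 4). Insig1 and Cyp51 are lowest in the KD vehicle group, Msmo1 is highest in the KD MG132 group, and Fasn and Acaca lie lower in both KD groups.

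Neighbouring genes of the pathway were taken from 4 further lists. Of 12 tested genes of other sterol synthesis, isoprenoids and uptake, 5 rose and 3 fell with MG132 in KD cells, and 4 rose and 4 fell in WT cells. Npc1, which moves cholesterol out of lysosomes, rose by 0.57 ± 0.03 in KD cells and by 0.65 in WT cells, and its lysosomal partner Npc2 by 0.29 in KD cells and 0.42 in WT cells. Mmab, an enzyme of cobalamin metabolism, fell by 0.88 in KD cells and by 0.89 in WT cells on the log2 scale. Tmem97, a sterol-responsive membrane protein, changed by -0.31 in WT cells, was lower in KD than in WT cells with vehicle (-0.41), and had a positive difference of responses (0.27, adjusted p = 0.00198), as did Lrp8, a lipoprotein receptor (0.31, adjusted p = 0.00114), which rose by 0.29 in KD cells. Between the lines, Ggps1, which makes geranylgeranyl diphosphate, was lower in KD cells (-0.38 under MG132 and -0.46 with vehicle), and Scarb1, a receptor for high-density lipoprotein, was higher (0.26 under MG132 and 0.22 with vehicle). Under MG132 Acat1, a mitochondrial thiolase, was also higher in KD cells (0.32) and Npc2 lower (-0.24). Osbp, an oxysterol-binding protein, was higher in KD cells with vehicle (0.24) and had a negative difference of responses (-0.17, adjusted p = 0.0442). In this list 4 genes were higher and 3 lower in KD than in WT cells under MG132, and 4 were higher and 5 lower with vehicle, and 2 had a positive and 1 a negative difference of responses.

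Of 12 proteases, ligases and adaptors that act on SREBP, INSIG or sterol-regulated enzymes, 5 rose and 5 fell with MG132 in each line. Ufd1, an adaptor of the VCP segregase, rose by 0.64 in KD cells and 0.71 in WT cells, Erlin2, an adaptor of the endoplasmic reticulum, fell by 0.78 in KD cells and 0.76 in WT cells, and Rnf145, a sterol-responsive ubiquitin ligase, changed by -0.85 in KD cells and -0.52 in WT cells. Its difference of responses was -0.33 (adjusted p = 0.000721), and it was also lower in KD than in WT cells, with differences of -0.79 under MG132 and -0.46 with vehicle. Ube2g2, a ubiquitin-conjugating enzyme, rose by 0.46 in KD cells, was higher in KD than in WT cells under MG132 (0.22) and had a positive difference of responses (0.19, adjusted p = 0.0276). Rnf139, another ligase, fell by 0.42 on the log2 scale in WT cells. Marchf6, a ligase of the endoplasmic reticulum, was higher in KD cells (0.24 under MG132 and 0.23 with vehicle), as were Erlin1 under MG132 (0.30) and Erlin2 and Ufd1 with vehicle (0.30 and 0.19). In this list 7 genes were higher and 1 lower in KD cells under MG132, and 6 were higher and 1 lower with vehicle.

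Of 10 genes for LXR, the nuclear receptor of oxysterols, and its targets, 1 rose and 2 fell with MG132 in each line. The one that rose was Abcg4 in KD cells (0.17) and Smpdl3a in WT cells (0.18), and those that fell were Abca1, a cholesterol exporter (-0.58 in KD cells and -0.65 in WT cells), and Mylip, a ligase for lipoprotein receptors (-0.70 in KD cells and -0.44 in WT cells). Between the lines, 4 were higher and 1 lower in KD cells under MG132, and 3 were higher and 1 lower with vehicle. Abca1 differed by -1.27 under MG132 and by -1.33 with vehicle, while Abcg1, another cholesterol exporter, differed by 1.64 under MG132 and 1.87 with vehicle, and Pltp, a phospholipid carrier, by 1.52 under MG132 and 1.65 with vehicle. Smpdl3a, a phosphodiesterase, was higher in KD cells too (0.74 under MG132 and 0.99 with vehicle) and had a negative difference of responses (-0.25, adjusted p = 0.0329). The list thus held line differences of both signs larger than that of any of the 30 members.

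Of 30 other genes of fatty acid and glycerolipid synthesis, 12 rose and 5 fell with MG132 in KD cells, and 9 rose and 6 fell in WT cells. Lpin2, a phosphatidate phosphatase, rose by 0.60 in KD cells and 0.55 in WT cells, and Gpam, the first acyltransferase of glycerolipid synthesis, fell by 0.77 on the log2 scale in KD cells with a difference of responses of -0.36 (adjusted p = 0.00296). Fads2, a desaturase of polyunsaturated fatty acids, was lower in KD than in WT cells, with differences of -0.57 under MG132 and -0.78 with vehicle, and had a positive difference of responses (0.21, adjusted p = 0.00379), as had Fads1 (0.19, adjusted p = 0.00503). Agpat2, an acyltransferase of phosphatidate synthesis, changed by -0.47 in KD cells and by -0.53 in WT cells, and was higher in KD than in WT cells (0.52 under MG132 and 0.46 with vehicle). Oxsm, a synthase of mitochondrial fatty acids, fell by 0.79 on the log2 scale in KD cells, and in WT cells Me1, the malic enzyme that makes NADPH, rose by 0.50 and Acsl5, an acyl-CoA synthetase, fell by 0.44. Acsl5 was higher in KD cells under MG132 (0.50), Hacd2, a dehydratase of elongation, was higher in both conditions (0.39 under MG132 and 0.45 with vehicle), and Plin2, a lipid droplet protein, was lower with vehicle (-0.49). Elovl3, an elongase, had a negative difference of responses (-0.52, adjusted p = 0.00585). In this list 6 genes had a positive and 3 a negative difference of responses, 6 were higher and 7 lower in KD cells under MG132, and 9 were higher and 7 lower with vehicle.

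For 27 of the 30 members the annotation gave 1 probe set, and for Idi1, Fdft1 and Acaca it gave 2. The other probe set of Idi1 had a difference of responses of 0.39 and that of Fdft1 of 0.28. The other probe set of Acaca differed between KD and WT cells by -0.46 under MG132 and -0.54 with vehicle.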

How the data were processed

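Total RNA of 16 plates was hybridised to Affymetrix gene arrays, 4 arrays a group. The deposited table holds 1 log2 intensity for each of 35556 probe sets, made with RMA in Partek, per the submitters' processing notes; the sources used here do not give their versions. RMA is known to compress folds at low signal. Of the probe sets, 21789 have 1 gene symbol in the platform annotation, 1621 have several and 12146 are not listed; their symbols were checked against RefSeq GRCm38.p6 (21698 matched by gene ID, no symbol changed). With 1 probe set a gene, the one with the highest mean, 19938 genes were tested.

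A linear model of 4 group means over the 16 arrays was fitted to all genes in limma (version 3.58.1, R 4.3.3; moderated variances, 12 residual and 4.12 prior degrees of freedom), with 5 contrasts and Benjamini-Hochberg adjustment over all genes within each contrast. The threshold was 0.05. The script was tested on simulated data. With 4 arrays against 4, an exact permutation test of a single gene, two-sided, cannot give a p below 0.0286. No 2 arrays held identical values. Members and lists were chosen with earlier results of these data known. From each of the 4 further lists the text names up to 4 genes a comparison with the smallest p among those past the threshold. Every member and Atf5 are named; 2 further genes that the naming rule lists were not analysed here. The number of arrays limits the precision. Alternatives covered scaling, filters, probe set choice, the groups in the fit, moderation, array weights, a replicate block and each array left out. Figures were drawn with matplotlib 3.10.9.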

Additional observations from a re-analysis of the deposited data

Results flagged for a closer look

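The MG132 response differed between KD and WT cells, by the test of the difference itself, for 12 members, with the KD minus WT difference of responses in log2: Insig1 0.49, Msmo1 0.43, Idi1 0.38, Cyp51 0.32, Sqle 0.30, Lss 0.29, Fdft1 0.26, Hsd17b7 0.25, Hmgcs1 0.21, Stard4 0.20, Srebf2 0.19 and Srebf1 -0.25.

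A single array stood far from the other 3 of its group in 4 of the 124 groups of 4 arrays examined, where chance alone gives about 1 in 20. Cyp51 read 10.82 in KD vehicle array 4, with the others at 10.60 to 10.63. In the same array Srebf1 read 10.23, with the others at 10.18. Scd1 read 12.52 in WT vehicle array 1, with the others at 12.61 to 12.62, and Scd2 read 13.55 there, with the others at 13.62.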

How the results depend on the processing

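No called result changed sign under any alternative that was run, but many alternatives could not change a sign. Filters, moderation, the groups in the fit, a replicate block and the gradient as a covariate leave the log2 difference as it was. So does leaving out an array outside the comparison. Such alternatives change only the estimated spread or the adjustment of p. Over 30 alternatives (29 for the difference of responses), 18 of 21 calls of members were kept in every one for the MG132 response in KD cells, 14 of 23 in WT cells, 14 of 18 for KD minus WT under MG132, 19 of 24 with vehicle and 9 of 12 for the difference of responses. Of the members not called, 3 of 9, 1 of 7, 3 of 12, 1 of 6 and 5 of 18 passed in some alternative, in the same order. With arrays centred on their medians, 5 members were higher with MG132 in WT cells, against 11. The members with a negative difference of responses numbered 2 with genes above the 25th percentile only and 3 with the gradient as a covariate, against 1. With array weights the MG132 response of Atf5 in KD cells, 0.11, passed the threshold (adjusted p = 0.0491), and without the first set of low-gradient arrays the KD minus WT difference of Atf5 with vehicle, -0.12, missed it (adjusted p = 0.0511). The cause was not tested. With each array left out in turn, the counts higher and lower were 12 to 14 and 8 for the response in KD cells, 8 to 11 and 11 to 13 in WT cells, 7 to 8 and 8 to 12 for KD minus WT under MG132, 6 to 7 and 16 to 18 with vehicle, and 11 to 12 and 1 to 3 for the difference, where the 3 came without WT MG132 array 4 or KD MG132 array 3 and a count of 2 without KD vehicle array 2.

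With the replicate number as a block, the counts higher and lower were 13 and 8, 9 and 13, 8 and 11, 6 and 17, and 12 and 1 in the same order. The labels do not say that a number marks a shared batch. Of 16 same-numbered pairs, 9 correlated above 0.1 in their deviations (range -0.25 to 0.40), and 13 of 32 best matches had the same number. In no comparison did every same-numbered pair exceed 0.1, which was the rule for pairing, so the numbers were not taken to pair the arrays. A partial pairing is not excluded by these values.

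Signal limits the small changes: differences of about the size of the spread between arrays cannot be placed on either side of the threshold, and levels of different probe sets were not compared.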
